A study of Homo sapiens with 8 samples.

Results

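The IL-6 family genes described here are 10 genes taken by symbol from a deposited table of 60708 genes: the cytokine genes IL6, IL11, LIF and CLCF1, the receptor genes IL6ST, IL6R, OSMR and LIFR, and the signalling genes SOCS3 and STAT3. Each symbol matched 1 row of the table. RNA sequencing was done on HS578T, a line grown from a human breast carcinoma, in 4 groups of 2 libraries that the design text calls biological replicates. HSF2oe cells carried a plasmid for the transcription factor HSF2 and Mock cells one for green fluorescent protein, 25 µg of DNA in both cases. A day after transfection the cells were given 24 h of assay medium with 10 ng/ml of TGF-β1 (TGFb) or of assay medium alone (Control). The groups are thus HSF2oe TGFb, HSF2oe Control, Mock TGFb and Mock Control. All carried a plasmid, so none shows untransfected cells. Groups were taken from the sample titles. The labels also have a treatment field that gives DMSO to all Mock libraries and TGFb1 to all HSF2oe libraries, which goes against the titles.

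Cytokines of the IL-6 family signal through receptor complexes that share the chain gp130, the product of IL6ST. IL-6 and IL-11 first bind a receptor of their own, IL6R and IL11RA, while LIF uses LIFR, oncostatin M uses OSMR or LIFR, and CLCF1 acts through CNTFR and LIFR. JAK kinases bound to these receptors phosphorylate the transcription factor STAT3, which induces SOCS3, an inhibitor that binds gp130 and ends the signal. IL11 is a well-known TGF-β target gene in breast cancer cells and fibroblasts.

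The promoters of IL11 and IL6, the cytokine genes that rose with TGF-β1 for both plasmids and with HSF2 in both media, are shown because they are the members whose windows held an AP-1 or an NF-kB match. RefSeq windows (build GRCh38.p14) were found for 8 of the 10 members, not for LIF and CLCF1, and the 250 bases before each annotated start were searched on both strands for AP-1 (TGANTCA), STAT (TTCNNNGAA), NF-kB (GGANNTTCC) and a pair of heat shock element units (GAANNTTC). The IL11 window is chr19:55370464-55370713, minus strand, and its capitals mark the AP-1 match, which begins 96 bases before the start. The IL6 window is chr7:22726950-22727199, plus strand, which lies inside the longer IL6 gene of the count table's annotation, and its capitals mark the NF-kB match, which begins 72 bases before the start.
IL11: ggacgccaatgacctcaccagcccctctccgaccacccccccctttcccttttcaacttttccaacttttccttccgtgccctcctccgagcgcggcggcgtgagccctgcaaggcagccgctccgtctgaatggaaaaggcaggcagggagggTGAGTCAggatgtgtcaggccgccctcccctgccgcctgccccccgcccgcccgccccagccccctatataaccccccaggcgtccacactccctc
IL6: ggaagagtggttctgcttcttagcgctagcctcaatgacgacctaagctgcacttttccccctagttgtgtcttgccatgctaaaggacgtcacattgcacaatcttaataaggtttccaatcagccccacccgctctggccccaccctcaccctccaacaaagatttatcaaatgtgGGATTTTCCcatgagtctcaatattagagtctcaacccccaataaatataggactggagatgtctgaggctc
Across all 35116 promoter windows of this length, 6.57% held the AP-1 letters, 6.57% the STAT letters, 3.84% the NF-kB letters and 5.78% the heat shock letters. Among the 11 windows of members, the STAT letters occurred in 2 of the 3 LIFR windows. The heat shock letters were found in none of the 11. These matches describe the letters of the windows and carry no measurement of binding.

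Total gene counts ran from 17427645 to 34336107 per library, so that the limit a count of 0 allows, 3 counts, lay between 0.0851 and 0.195 CPM (a count scaled to the library total), for counting error only. HSF2 was at 780.3 and 489 CPM in HSF2oe TGFb and 937 and 616 CPM in HSF2oe Control, against 5.40 and 5.76 CPM in Mock TGFb and 8.36 and 6.44 CPM in Mock Control, as the titles have it. Mesenchymal markers were abundant, with VIM at 2476 to 3463 TPM (a level adjusted for gene length and library total). The luminal markers were mixed. ESR1, EPCAM, KRT19 and CDH1 stayed at or below 0.0613, 0.236, 0.368 and 0.709 TPM and PGR was at 0. KRT18 lay at 227 to 379 TPM, KRT8 at 9.50 to 16.3 TPM and GATA3 at 8.35 to 19.9 TPM. Among the blood cell markers, CD3E was at 0 and PTPRC reached at most 0.32 TPM, while CSF1R lay at 4.73 to 12.9 TPM and CD14 at 1.41 to 9.57 TPM. CSF1R rose with TGF-β1 in HSF2oe and Mock cells (log2 change 1.23 and 0.78). With TGF-β1, CD14 was lower in HSF2oe than in Mock cells (-1.58). PTPRC, with 0 to 24 reads per library, was lower in HSF2oe TGFb than in HSF2oe Control and in Mock TGFb. Summed over the blood list, the level was 13.1 to 15.0 TPM in HSF2oe TGFb, 9.49 to 10.1 TPM in HSF2oe Control, 14.5 to 15.2 TPM in Mock TGFb and 13.5 to 15.3 TPM in Mock Control, mostly from CSF1R and CD14. The mesenchymal list of 6 genes summed to 18204 to 19924 TPM in HSF2oe TGFb, 14747 to 15705 TPM in HSF2oe Control, 22269 to 25528 TPM in Mock TGFb and 15999 to 18077 TPM in Mock Control, a sum carried mostly by FN1 and SPARC. Of its genes, 2 of 6 rose with TGF-β1 in HSF2oe cells (FN1 and SPARC) and 3 of 6 in Mock cells (FN1, SPARC and ZEB1). Between plasmids, with and without TGF-β1, SPARC was lower in HSF2oe cells (log2 change -1.09 and -0.95) and CD44 higher (0.47 and 0.50). The luminal list of 8 genes, mostly KRT18, summed to 253 to 309 TPM, 304 to 347 TPM, 343 to 355 TPM and 360 to 404 TPM in the same order of groups, and 5 endothelial markers together stayed at or below 3.53 TPM. On the luminal list, GATA3 was higher in HSF2oe than in Mock cells with and without TGF-β1 (log2 change 0.70 and 0.84). KRT18 and KRT8 were lower in HSF2oe cells with TGF-β1 (-0.52 and -0.41) and did not pass without it. The part of these lists in the results was not tested. In bulk RNA, fewer cells expressing a gene and less of its RNA per cell cannot be told apart.

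The family held abundant cytokine genes beside a nearly absent IL-6 receptor. On the length-adjusted scale IL11 was the top member with TGF-β1, at 428 ± 33.8 TPM in HSF2oe TGFb and 239.8 ± 1.94 TPM in Mock TGFb (mean ± SD, n = 2 here and below). Without TGF-β1 the gp130 gene IL6ST led, at 191 ± 9.97 TPM in HSF2oe Control and 197 ± 0.0401 TPM in Mock Control. IL11 then held rank 4 in HSF2oe Control, at 76.7 ± 2.83 TPM, and rank 5 in Mock Control, at 43.6 ± 4.87 TPM. OSMR held rank 2 or 3 in every group, between 148 and 192 TPM in the 8 libraries. In Mock Control the libraries of STAT3, IL6, IL11, SOCS3 and LIF overlapped each with the next in order, from 51.8 ± 2.86 TPM for STAT3 down to 39.5 ± 3.70 TPM for LIF. In HSF2oe TGFb the overlap was limited to CLCF1 and STAT3, at 54.4 ± 7.59 and 46.7 ± 3.65 TPM. In HSF2oe Control, LIF and SOCS3 overlapped, at 63.3 ± 7.09 and 62.3 ± 4.63 TPM, and in Mock TGFb, SOCS3 and STAT3, at 47.1 ± 7.31 and 46.0 ± 3.05 TPM. LIFR held rank 9 in every group, from 12.8 to 28.5 TPM, and IL6R was last, from 0.114 to 1.18 TPM.

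**Figure D1:**
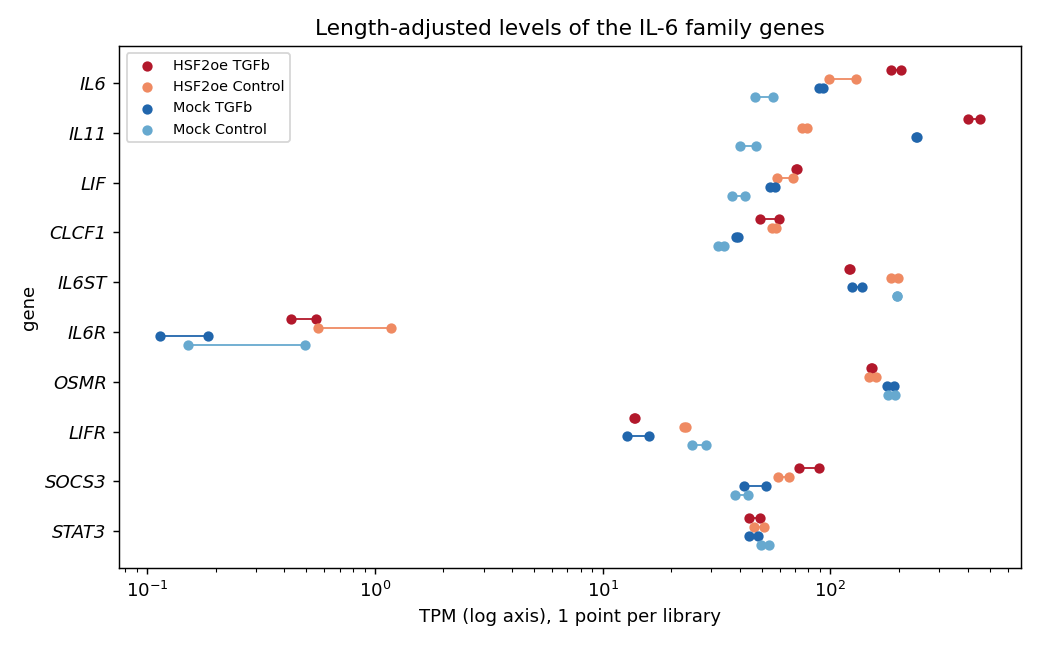
Levels of the 10 genes in TPM on a log axis, 1 point for each of the 8 libraries, with a line joining the libraries of a group. IL11 lies between 40.1 and 452 TPM, and IL6R lies below 1.18 TPM in every library.

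IL6R was counted with 29 and 15 reads in HSF2oe TGFb, 53 and 26 in HSF2oe Control, 5 and 4 in Mock TGFb and 6 and 26 in Mock Control. It passed the filter on low counts (0.376 CPM of the library total) in 5 of 8 libraries, the 4 HSF2oe ones and Mock Control 2, so its place among the genes tested came through the HSF2oe groups. The other 9 members passed in all 8 libraries. OSM, the gene of oncostatin M, had 0 to 4 reads in any library and CNTFR 0 or 1, so the OSMR receptor gene was abundant and the gene of its ligand was at or near 0. IL11RA, the receptor of IL-11, lay between 3.68 and 7.79 TPM.

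Counts were scaled by TMM factors (a trimmed mean of log ratios between libraries) and tested with edgeR's quasi-likelihood test over 16008 genes, with Benjamini-Hochberg adjustment and a threshold of 0.05. Values after ± are standard errors where they follow a log2 change. TMM factors ran from 0.857 to 1.01 in TGFb libraries and from 1.03 to 1.11 in Control libraries, so scaling moved with the treatment. Under library totals alone, the median log2 change of all genes was -0.27 for TGF-β1 in Mock cells and -0.17 in HSF2oe cells. For HSF2oe over Mock it was 0.19 with and 0.09 without TGF-β1.

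With TGF-β1, several cytokine genes rose and the receptor genes IL6ST and LIFR fell. In Mock cells IL11, IL6, LIF and CLCF1 rose, IL6ST and LIFR fell, and SOCS3, STAT3, OSMR and IL6R did not pass. In HSF2oe cells IL11, IL6 and SOCS3 rose and IL6ST and LIFR fell. In all, 6 of 10 members were called in Mock cells, 4 up and 2 down, where 13.8% of all genes were called, 7.32% up and 6.5% down. In HSF2oe cells 5 of 10 were called, 3 up and 2 down, where 8.26% of all genes were, 4.45% up and 3.82% down. The median log2 change of the members was 0.32 in Mock and 0.09 in HSF2oe cells (0.43 and 0.11 without IL6R), against -0.00444 and -0.00917 over all genes tested. These comparisons share no library.

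IL11 (ENSG00000095752.7, chromosome 19, 55364382 to 55370463, minus strand), encoding interleukin-11, had 276 and 281 CPM in HSF2oe TGFb, against 47.2 and 44.2 CPM in HSF2oe Control. It had 176 and 171 CPM in Mock TGFb, against 29.0 and 24.9 CPM in Mock Control. Every TGFb library thus lay above every Control library, whichever plasmid the cells had. The log2 rise was 2.60 ± 0.10 in HSF2oe cells (adjusted p = 2.78e-08) and 2.68 ± 0.11 in Mock cells (adjusted p = 1.21e-08), or 6.08-fold and 6.43-fold. The call held in all alternatives run, and its size ranged from 2.56 to 2.66 in HSF2oe and from 2.57 to 2.79 in Mock cells when single libraries were left out.

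IL6 (ENSG00000136244.12, chromosome 7, 22725884 to 22732002, plus strand), the gene of the founding cytokine of the family, had 97.3 and 98.6 CPM in HSF2oe TGFb, against 45.8 and 59.6 CPM in HSF2oe Control. It had 50.0 and 51.3 CPM in Mock TGFb, against 22.2 and 26.8 CPM in Mock Control. The pairs of groups did not overlap, while the HSF2oe Control libraries lay on both sides of the Mock TGFb ones. IL6 rose by 0.89 ± 0.13 in HSF2oe cells (adjusted p = 5.80e-04) and by 1.04 ± 0.13 in Mock cells (adjusted p = 1.50e-04). IL6 shares 20.7% of its exonic bases with IL6-AS1 and STEAP1B on the other strand, and the counting used no strand option. Those genes had 28 to 115 and 92 to 380 reads per library, against 592 to 3125 for IL6.

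LIF (ENSG00000128342.5, chromosome 22, 30240453 to 30246759, minus strand), encoding leukemia inhibitory factor, had 70.0 and 63.6 CPM in HSF2oe TGFb, against 59.2 and 49.9 CPM in HSF2oe Control. It had 60.4 and 56.0 CPM in Mock TGFb, against 37.5 and 33.1 CPM in Mock Control. Neither pair of groups overlapped. LIF rose by 0.72 ± 0.11 in Mock cells (adjusted p = 8.52e-04). In HSF2oe cells its log2 change was 0.29 ± 0.11 and did not pass (adjusted p = 0.149), but it did with a block for the replicate number (0.0159).

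CLCF1 (ENSG00000175505.11, chromosome 11, 67364168 to 67374177, minus strand), which encodes cardiotrophin-like cytokine factor 1, had 28.0 and 20.9 CPM in HSF2oe TGFb, against 23.8 and 22.5 CPM in HSF2oe Control. It had 19.3 and 19.2 CPM in Mock TGFb, against 14.4 and 13.7 CPM in Mock Control. The HSF2oe groups overlapped and the Mock groups did not. CLCF1 rose by 0.45 ± 0.14 in Mock cells (adjusted p = 0.0464), and its change of 0.08 ± 0.13 in HSF2oe cells did not pass (adjusted p = 0.812) and turned to -0.09 under library totals alone and to -0.14 without HSF2oe TGFb 1. The Mock call lay near the threshold. It was lost under library totals alone (adjusted p = 0.312), without Mock Control 1 (0.142), Mock Control 2 (0.19), Mock TGFb 1 (0.132), Mock TGFb 2 (0.161), HSF2oe Control 1 (0.0631) or HSF2oe Control 2 (0.0635), the values in parentheses being adjusted p.

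**Figure D2:**
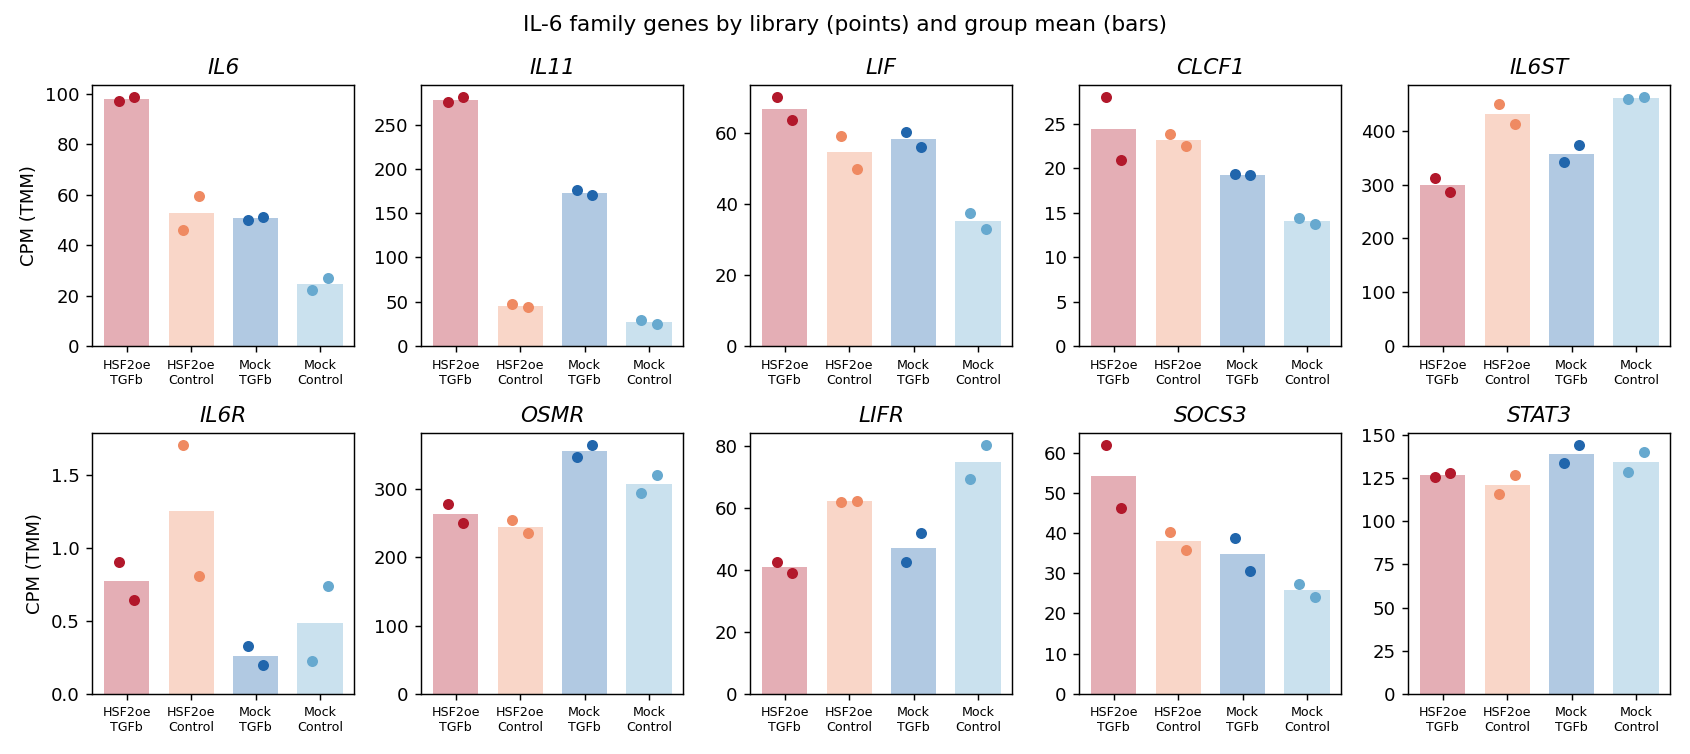
TMM-scaled CPM of the 10 genes, with 1 point per library (2 per group) and a bar at the group mean; each panel has its own linear axis from 0. IL11 stands at 276 and 281 CPM in HSF2oe TGFb, while IL6ST is lower in both TGFb groups than in the Control groups of the same plasmid.

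The receptor genes IL6ST and LIFR, whose products form the LIF receptor, moved down together with TGF-β1. IL6ST (ENSG00000134352.20, chromosome 5, 55935095 to 55995022, minus strand) had 313 and 287 CPM in HSF2oe TGFb, against 449.9 and 412 CPM in HSF2oe Control. It had 342 and 373 CPM in Mock TGFb, against 459 and 462 CPM in Mock Control. All TGFb libraries lay below all Control libraries. IL6ST fell by 0.52 ± 0.10 on the log2 scale in HSF2oe cells (adjusted p = 0.00474) and by 0.37 ± 0.10 in Mock cells (adjusted p = 0.0258). The HSF2oe call was lost without HSF2oe Control 1 (adjusted p = 0.0572) or HSF2oe TGFb 2 (0.0562), and the Mock call without Mock Control 1 (0.103), Mock Control 2 (0.097), Mock TGFb 1 (0.176) or Mock TGFb 2 (0.0694), with log2 changes from -0.59 to -0.31 throughout.

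LIFR (ENSG00000113594.10, chromosome 5, 38474668 to 38608354, minus strand) had 42.5 and 39.1 CPM in HSF2oe TGFb, against 61.9 and 62.3 CPM in HSF2oe Control. It had 42.4 and 52.0 CPM in Mock TGFb, against 69.4 and 80.3 CPM in Mock Control. Here too every TGFb library was below every Control library. LIFR fell by 0.60 ± 0.12 in HSF2oe cells (adjusted p = 0.00501) and by 0.66 ± 0.12 in Mock cells (adjusted p = 0.00168). The HSF2oe call was lost without HSF2oe TGFb 2 (adjusted p = 0.0537, log2 change -0.54). LIFR shares 5.17% and IL6ST 7.88% of exonic bases with a gene on the other strand.

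OSMR (ENSG00000145623.13, chromosome 5, 38845858 to 38945596, plus strand), encoding the oncostatin M receptor chain, did not pass for TGF-β1 in either kind of cell. It had 278 and 250.5 CPM in HSF2oe TGFb, against 255 and 235 CPM in HSF2oe Control, and 347 and 364 CPM in Mock TGFb, against 295 and 320.2 CPM in Mock Control. The HSF2oe groups overlapped. Its log2 change was 0.11 ± 0.10 in HSF2oe cells (adjusted p = 0.625) and 0.21 ± 0.10 in Mock cells (adjusted p = 0.211), and both turned to -0.05 under library totals alone. IL6R (ENSG00000160712.13, chromosome 1, 154405193 to 154469450, plus strand), at the counts given above, had changes of -0.68 ± 0.54 and -0.96 ± 0.75 in HSF2oe and Mock cells (adjusted p = 0.56 and 0.483), too few reads to set a direction; the Mock value turned to 0.17 without Mock Control 2.

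SOCS3 (ENSG00000184557.4, chromosome 17, 78356778 to 78360077, minus strand), the feedback inhibitor, had 61.9 and 46.3 CPM in HSF2oe TGFb, against 40.2 and 35.7 CPM in HSF2oe Control. It had 38.9 and 30.6 CPM in Mock TGFb, against 27.4 and 24.2 CPM in Mock Control. Neither pair overlapped, and the TGFb libraries of each plasmid differed more among themselves than its Control libraries. SOCS3 rose by 0.52 ± 0.15 in HSF2oe cells (adjusted p = 0.0445), and its change of 0.43 ± 0.15 in Mock cells did not pass (adjusted p = 0.0852). The HSF2oe call was lost without HSF2oe Control 1 (adjusted p = 0.0989), HSF2oe Control 2 (0.25) or HSF2oe TGFb 1 (0.347, log2 change 0.30), under library totals alone (0.128), a stricter filter (0.0515), limma-trend on the deposited log2 CPM (0.0727) or a fit of the HSF2oe libraries alone (0.062). In Mock cells SOCS3 passed with no filter on low counts (0.0199) and with a block for the replicate number (0.00303). Its change there was 0.416 without HSF2oe TGFb 1 and 0.421 without HSF2oe TGFb 2.

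STAT3 (ENSG00000168610.16, chromosome 17, 42313324 to 42388540, minus strand) had the narrowest range of the members relative to its level, between 116 and 144 CPM in the 8 libraries. Its log2 change with TGF-β1 was 0.07 ± 0.10 in HSF2oe cells (95% interval -0.14 to 0.28, adjusted p = 0.774) and 0.05 ± 0.10 in Mock cells (-0.16 to 0.26, adjusted p = 0.812). These turned to -0.09 and -0.21 under library totals alone, and the Mock value to -0.02 without Mock Control 1 and to -0.0071 without Mock TGFb 2. The measure is of STAT3 RNA and says nothing of its phosphorylation.

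The HSF2 plasmid was set against the GFP plasmid with and without TGF-β1. HSF2oe cells had more IL6, IL11 and SOCS3 RNA in both media and less OSMR RNA, and without TGF-β1 they also had more LIF and CLCF1. With TGF-β1, 4 of 10 members were called, 3 up and 1 down, where 21.5% of all genes were called, 9.6% up and 11.9% down. Without it, 6 of 10 were called, 5 up and 1 down, where 12.1% of all genes were, 4.88% up and 7.22% down. The median log2 change of the members was 0.27 with and 0.59 without TGF-β1 (0.20 and 0.56 without IL6R), against -0.0032 and -0.00227 over all genes. These comparisons share no library with each other, but each shares libraries with both TGF-β1 comparisons.

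IL6 gave the largest called log2 change of a member between plasmids, 0.95 ± 0.13 with TGF-β1 (adjusted p = 3.32e-04) and 1.10 ± 0.13 without it (adjusted p = 4.29e-04). All HSF2oe libraries of a medium lay above its Mock libraries, at the CPM values given above. IL11 rose by 0.68 ± 0.10 with TGF-β1 (adjusted p = 5.20e-04) and by 0.76 ± 0.10 without it (adjusted p = 9.48e-04), again with no overlap. The calls of IL6 and IL11 held in every alternative run for both comparisons. Between the corner groups, IL11 averaged 278 ± 3.71 CPM in HSF2oe TGFb and 27.0 ± 2.90 CPM in Mock Control, and IL6 97.9 ± 0.912 and 24.5 ± 3.27 CPM (SD, n = 2 each), a difference for which no test was run.

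LIF rose by 0.63 ± 0.11 in HSF2oe cells without TGF-β1 (adjusted p = 0.00404), a call lost without HSF2oe Control 1 (adjusted p = 0.0666) or Mock Control 2 (0.0632). With TGF-β1 its change was 0.20 ± 0.11 and did not pass (adjusted p = 0.232), though it did at 0.39 under library totals alone (0.0226). CLCF1 rose by 0.72 ± 0.14 without TGF-β1 (adjusted p = 0.00501), a call lost without HSF2oe Control 1 (0.0564) or Mock Control 2 (0.0558). With TGF-β1 the CLCF1 change was 0.35 ± 0.14 and did not pass (adjusted p = 0.0895). It did pass under library totals alone (0.00852) and with a block for the replicate number (0.0348), and it was 0.54 without HSF2oe TGFb 2. The libraries of LIF and CLCF1 did not overlap between plasmids in either medium. With 2 libraries per group this is common: of 63 other pathway genes tested, 43 with and 41 without TGF-β1 did not overlap either. The share over all genes tested was not computed, so the lack of overlap of any member is given as a description only. For TGF-β1 over Control the same held for 35 of the 63 in HSF2oe and 41 in Mock cells.

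SOCS3 rose by 0.65 ± 0.15 with TGF-β1 (adjusted p = 0.0082), a call lost without HSF2oe TGFb 1 (0.0952) or Mock TGFb 2 (0.102). It rose by 0.56 ± 0.15 without TGF-β1 (adjusted p = 0.0274), a call lost without HSF2oe Control 1 (0.206), Mock Control 1 (0.0502) or Mock Control 2 (0.201). OSMR fell by 0.43 ± 0.10 with TGF-β1 (adjusted p = 0.00885), a call lost without HSF2oe TGFb 2 (0.0763) or Mock TGFb 2 (0.0759) and under library totals alone (0.0911). It fell by 0.33 ± 0.10 without TGF-β1 (adjusted p = 0.0488). That OSMR call, just inside the threshold, was lost without HSF2oe Control 1 (0.142), HSF2oe Control 2 (0.227), HSF2oe TGFb 2 (0.0509), Mock Control 1 (0.0765), Mock Control 2 (0.29), Mock TGFb 1 (0.0625) or Mock TGFb 2 (0.0613), under library totals alone (0.134) and with only the 4 libraries compared (0.0698). The number of members called up without TGF-β1 was 2 without HSF2oe Control 1 or Mock Control 2.

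The other receptor genes and STAT3 did not pass between plasmids. With and without TGF-β1, IL6ST changed by -0.25 ± 0.10 and -0.10 ± 0.10 (adjusted p = 0.0866 and 0.582), LIFR by -0.21 ± 0.12 and -0.27 ± 0.11 (0.227 and 0.141) and STAT3 by -0.13 ± 0.10 and -0.15 ± 0.10 (0.38 and 0.355). The STAT3 value with TGF-β1 turned to 0.06 under library totals alone. With a block for the replicate number, IL6ST passed with TGF-β1 (0.0226) and LIFR without it (0.0438). IL6R had changes of 1.60 ± 0.73 and 1.32 ± 0.56 (0.137 and 0.148), resting on 4 to 53 reads per library and on a filter that it passed through its HSF2oe libraries.

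**Figure D3:**
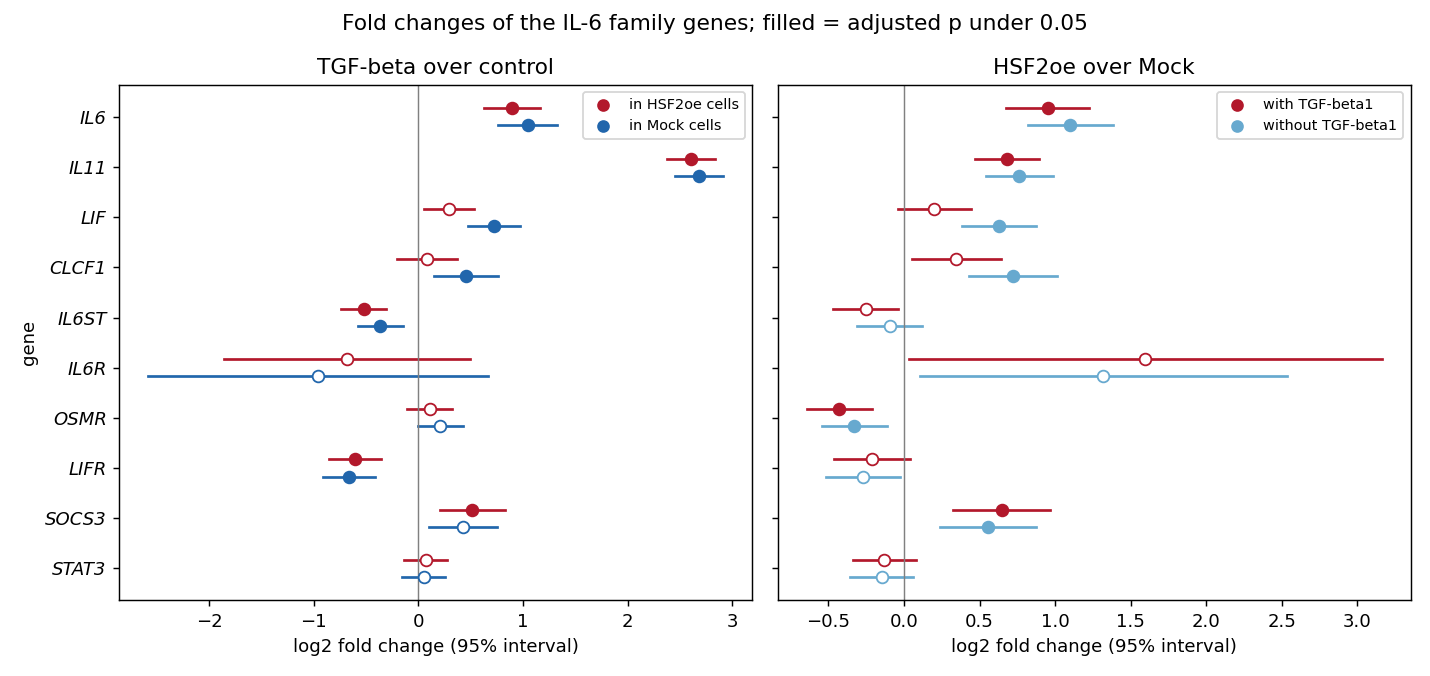
Log2 fold changes of the 10 genes with their 95% intervals: TGF-β1 over Control for each plasmid on the left, HSF2oe over Mock for each medium on the right; filled points passed at an adjusted p under 0.05. IL11 lies near 2.6 for TGF-β1 in both kinds of cells, and the intervals of IL6R are the widest.

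The difference between the TGF-β1 effects, HSF2oe minus Mock, asks whether the plasmid changed the response. It passed for 0 of the 10 members and for 0% of the 16008 genes by edgeR's quasi-likelihood test, with 977 genes at an unadjusted p under 0.05, and DESeq2 called 23 genes, no member among them. The largest difference among the well-counted members was that of LIF, at -0.43 ± 0.16 (95% interval -0.77 to -0.08, adjusted p = 0.759), followed by CLCF1 at -0.37 ± 0.19 (-0.79 to 0.04, adjusted p = 0.84). For IL11 it was -0.08 ± 0.14 (-0.39 to 0.23) and for IL6 -0.15 ± 0.18 (-0.54 to 0.24). A missed threshold does not show that the responses were alike, and these intervals are the sizes that the 8 libraries leave possible.

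Other genes of the pathway were taken from lists of 80 genes, of which 63 passed the filter on low counts. With TGF-β1, 4 rose and 5 fell in HSF2oe cells and 6 rose and 5 fell in Mock cells. HSF2oe over Mock gave 9 rises and 11 falls with TGF-β1 and 8 rises and 6 falls without it. The shares called, 14.3% and 17.5% for TGF-β1 in HSF2oe and Mock cells, 31.7% and 22.2% for the plasmids with and without TGF-β1, stand beside the percentages over all genes given above. The median log2 changes were between -0.06 and 0.02. None of the 14 negative regulators and phosphatases tested, such as other SOCS genes and the phosphatase genes PTPN1 and PTPN11, passed in any comparison.

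Few other ligand and receptor genes were present at more than a few TPM. IL31RA, a gp130-like receptor gene, fell by 0.85 ± 0.23 with TGF-β1 in HSF2oe cells (adjusted p = 0.0348), with 10.1 and 6.18 CPM in HSF2oe TGFb against 17.2 and 12.5 CPM in HSF2oe Control, a call lost without HSF2oe Control 1 (0.293) or HSF2oe TGFb 2 (0.249) and with only the 4 libraries compared (0.0716). IL11RA was lower in HSF2oe than in Mock cells with TGF-β1, at 4.02 and 4.77 CPM in HSF2oe TGFb against 6.45 and 8.91 CPM in Mock TGFb, a fall of 0.82 ± 0.23 (adjusted p = 0.0208) that was lost without HSF2oe TGFb 1 (0.145) or Mock TGFb 2 (0.22). IL27RA lay between 11.6 and 19.8 TPM, CTF1 between 2.47 and 6.27, CNTF between 0.754 and 4.52 and EBI3 between 1.14 and 4.25 TPM, and none of them passed in any comparison.

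Among the kinases, 1 of 3 tested was called: JAK1, which fell in HSF2oe over Mock with TGF-β1 (-0.40 ± 0.10, adjusted p = 0.0117), a call lost without HSF2oe TGFb 1 (0.0952) or Mock TGFb 2 (0.127) and under library totals alone (0.144). Among the other STAT genes, STAT5B rose with TGF-β1 in HSF2oe cells (0.44 ± 0.09, adjusted p = 0.00986) and Mock cells (0.33 ± 0.09, adjusted p = 0.0312), and STAT6 fell in both (-0.38 ± 0.09 and -0.31 ± 0.09, adjusted p = 0.0177 and 0.0371). Each of these STAT5B and STAT6 calls was lost when any 1 of the 4 libraries compared was left out, except for STAT5B in Mock cells, which was kept without Mock TGFb 1 but lost without HSF2oe TGFb 1. STAT5B was also lost under library totals alone in both kinds of cells, and in Mock cells STAT5B and STAT6 were lost with only the 4 libraries compared (0.0517 and 0.0502) and STAT5B with no filter (0.0924).

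Between plasmids with TGF-β1, STAT6 and STAT2 were lower in HSF2oe cells, by -0.36 ± 0.09 and -0.39 ± 0.10 on the log2 scale (adjusted p = 0.0126 and 0.0174). Both calls were lost under library totals alone and without HSF2oe TGFb 1, HSF2oe TGFb 2 or Mock TGFb 2. Without TGF-β1, STAT5A was lower by -0.49 ± 0.12 (adjusted p = 0.0211), a call lost without HSF2oe Control 1 (0.209), Mock Control 1 (0.0754) or Mock Control 2 (0.124) and under library totals alone (0.0511). ADAM10, a protease that sheds receptors, was lower in HSF2oe cells by -0.55 ± 0.10 with TGF-β1 (adjusted p = 0.00184). It was lower by -0.34 ± 0.10 without TGF-β1 (adjusted p = 0.0384), a call lost without any 1 of the 4 libraries compared, with only those 4 (0.0512) and under library totals alone (0.11). RHBDF1, a partner of the protease ADAM17, was lower with TGF-β1 (-0.55 ± 0.12, adjusted p = 0.00645), a call lost without HSF2oe TGFb 2 (0.0553) or Mock TGFb 2 (0.0519).

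Of 21 STAT3 target genes tested for TGF-β1, 3 rose and 1 fell in HSF2oe cells (19.0% called, against 8.26% of all genes) and 3 rose and 2 fell in Mock cells (23.8%, against 13.8% of all genes). Their median log2 changes were -0.09 and 0.07. JUNB, an AP-1 subunit gene, had 139 and 143 CPM in HSF2oe TGFb against 66.4 and 69.6 CPM in HSF2oe Control, and 136 and 137 CPM in Mock TGFb against 49.3 and 51.2 CPM in Mock Control. It rose by 1.05 ± 0.09 and 1.44 ± 0.09 (adjusted p = 1.01e-05 and 6.87e-07). TNFAIP6, a secreted hyaluronan-binding protein, rose by 1.66 ± 0.19 in HSF2oe and 1.33 ± 0.19 in Mock cells (adjusted p = 9.11e-05 and 3.25e-04). IL4R rose in Mock cells (0.59 ± 0.12, adjusted p = 0.00388), and BIRC5, encoding the mitotic protein survivin, fell there (-0.58 ± 0.12, adjusted p = 0.00471), a call lost without Mock Control 1 (0.0527) or Mock TGFb 2 (0.0796). NNMT rose in HSF2oe cells (0.77 ± 0.15, adjusted p = 0.00484), a call lost without HSF2oe Control 1 (0.0581). CEBPD, a transcription factor gene of the acute phase response, fell in HSF2oe cells (-0.79 ± 0.18, adjusted p = 0.0159). That call was lost without HSF2oe Control 2 (0.191), HSF2oe TGFb 1 (0.0709) or HSF2oe TGFb 2 (0.0741). CEBPD also fell in Mock cells (-0.64 ± 0.18, adjusted p = 0.029), a gene named there after its values were seen, and that call was lost without Mock Control 2 (0.185), Mock TGFb 1 (0.163) or Mock TGFb 2 (0.0571).

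Between plasmids the same list gave 7 rises and 3 falls with TGF-β1 (47.6% called, against 21.5% of all genes) and 6 rises and 3 falls without it (42.9%, against 12.1% of all genes), with median log2 changes of 0.02 and 0.12. CCND1, encoding cyclin D1, was higher in HSF2oe cells by 0.82 ± 0.10 in both media (adjusted p = 2.25e-04 with and 6.46e-04 without TGF-β1). NNMT was lower by -0.81 ± 0.14 with and -1.18 ± 0.15 without it (adjusted p = 0.00186 and 5.89e-04). With TGF-β1, MYC was higher by 0.85 ± 0.12 (adjusted p = 5.38e-04) and CEBPD lower by -0.94 ± 0.19 (adjusted p = 0.00383). Both were also called without TGF-β1, by 0.54 ± 0.12 and -0.78 ± 0.17 (adjusted p = 0.0133 and 0.0117), and were named there after their values were seen. With single libraries left out, these changes ranged from 0.45 to 0.63 and from -1.09 to -0.52, and both calls were lost in some of those fits. Without TGF-β1, JUNB was higher by 0.44 ± 0.09 (adjusted p = 0.0088), a call lost without HSF2oe Control 1 (0.0571), Mock Control 1 (0.0592) or Mock Control 2 (0.0632). FOS was higher by 1.65 ± 0.33 at low levels (3.15 CPM in HSF2oe Control and 0.976 CPM in Mock Control on average, adjusted p = 0.00681), a call lost without HSF2oe Control 1 (log2 change 1.45). It was also called with TGF-β1 (1.47 ± 0.37, adjusted p = 0.014), named there after its values were seen. That change ranged from 1.31 to 1.62 with single libraries left out, and the call was lost in some of those fits.

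Genes of transcription factors that act on the IL6, IL11 and LIF promoters were also measured. FOSL1, an AP-1 subunit gene, went against the cytokine genes with TGF-β1: it had 235 and 181 CPM in HSF2oe TGFb against 416 and 356 CPM in HSF2oe Control, and 89.9 and 61.5 CPM in Mock TGFb against 207 and 146 CPM in Mock Control. It fell by 0.89 ± 0.19 in HSF2oe cells (adjusted p = 0.00939), a call lost without HSF2oe Control 1 (0.0804) or HSF2oe TGFb 2 (0.0856), and by 1.23 ± 0.19 in Mock cells (adjusted p = 7.93e-04). Between plasmids FOSL1 was higher in HSF2oe cells, by 1.46 ± 0.19 with TGF-β1 and 1.13 ± 0.19 without it (adjusted p = 3.16e-04 and 0.00271). SMAD3, which carries the TGF-β signal to the nucleus, fell with TGF-β1 by 0.83 ± 0.09 in HSF2oe and 0.76 ± 0.10 in Mock cells (adjusted p = 1.09e-04 and 1.55e-04). JUN was higher in HSF2oe cells by 0.87 ± 0.18 with and 0.92 ± 0.17 without TGF-β1 (adjusted p = 0.00378 and 0.00528), the second call being lost without HSF2oe Control 1 (0.0655) or Mock Control 2 (0.0632). JUND was lower by -0.51 ± 0.15 and -0.74 ± 0.15 (adjusted p = 0.0268 and 0.00682). The JUND call with TGF-β1 was lost without HSF2oe TGFb 1 (0.273), Mock TGFb 1 (0.111) or Mock TGFb 2 (0.075) and under library totals alone (0.138), and the one without TGF-β1 was lost without HSF2oe Control 1 (0.0965). RELA, NFKB1, FOSL2 and CREB1 did not pass in any comparison.

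**Figure D4:**
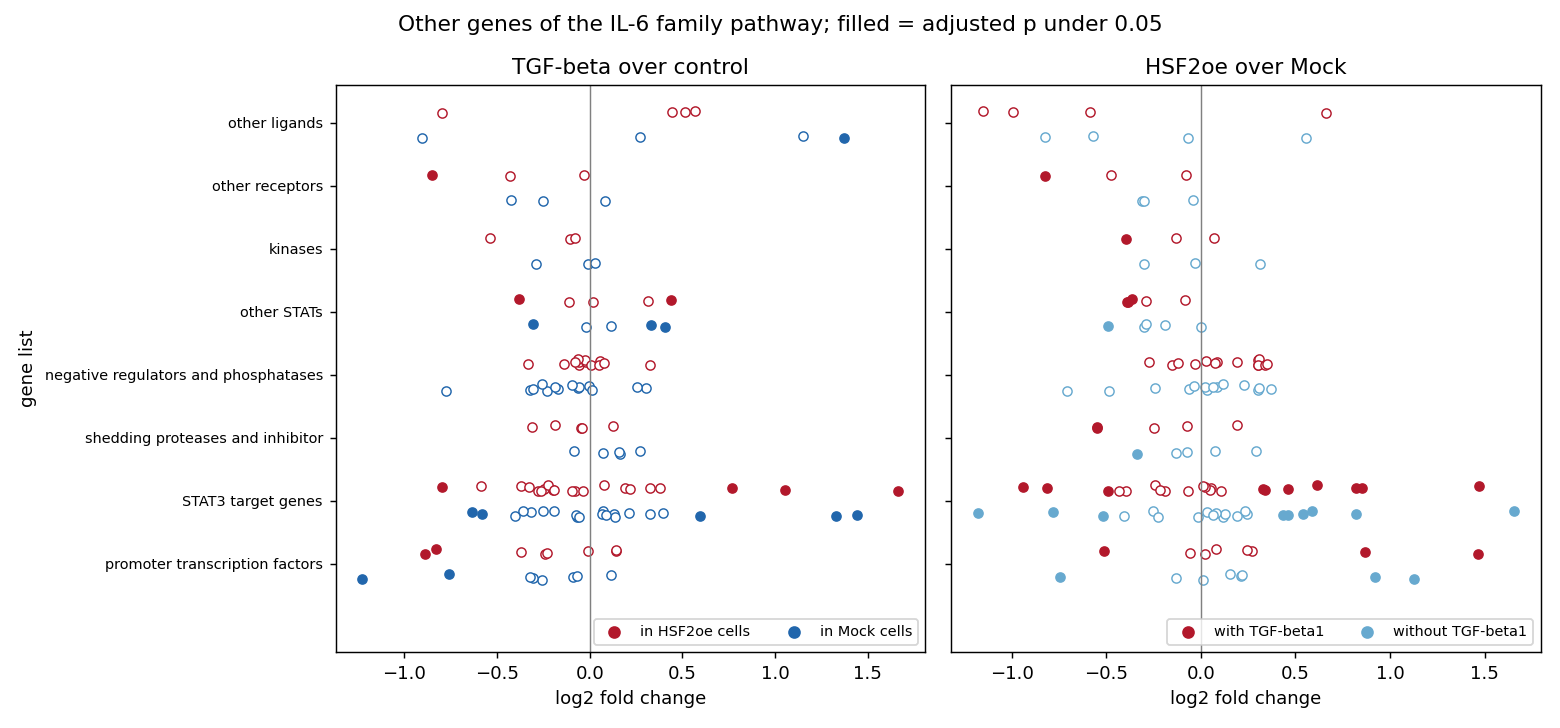
Log2 fold changes of the 63 other pathway genes tested, by list, for TGF-β1 over Control on the left and HSF2oe over Mock on the right; each point is a gene, and filled points passed at an adjusted p under 0.05. The negative regulators and phosphatases hold no filled point, and the filled points farthest to the right for TGF-β1 are TNFAIP6 at 1.66 in HSF2oe cells and JUNB at 1.44 in Mock cells.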

How the data were processed

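Per the file headers, the authors counted read pairs per gene with featureCounts 2.0.1 against GENCODE release 38, without a strand option. The kit was a stranded one, per the labels. The submitters' processing notes list STAR 2.7.9a, Subread 2.0.1, edgeR 3.34.1 and the build GRCh38. A second table the authors deposited holds log2 CPM of 13169 genes, 9 members among them, which lay within 0.0288 of TMM log2 CPM with a prior count of 2. That table was used as an alternative only. The deposited gene counts went into edgeR 4.0.16 (R 4.3.3). Genes passed filterByExpr with a minimum count of 10, TMM scaled the libraries, and glmQLFit was run on all 8 libraries with 4 group means, 2-sided, with Benjamini-Hochberg over 16008 genes. The common biological coefficient of variation came to 9.91% (4 residual degrees of freedom). Standard errors are the absolute log2 change over the square root of F. TPM came from the counts and the table's exonic lengths. Chi-square per degree of freedom between the 2 libraries of a group was 12.5 to 26.8, far above sampling noise. Alternatives used RLE, library totals, other filters, DESeq2 1.42.0, limma 3.58.1, a replicate block and leaving out each library.

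The members and lists were chosen with earlier results of these data known. Named pathway genes are up to 4 per list and comparison with the smallest p among those called, and the ligands and receptors tested; some genes that these rules name are not reported here. The script was checked on simulated data. Nothing in the labels says what a replicate number shares, so p-values measure the spread between these libraries. The test draws each gene's spread toward that of the other genes. Its p-values and intervals thus rest on more degrees of freedom than the 4 residual ones.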

Additional observations from a re-analysis of the deposited data

How the results depend on the processing

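Over all alternatives, 703 values of members kept their direction and their side of the threshold, 42 calls of members were lost, 11 were gained and 23 values changed sign, all of them uncalled. With single libraries left out, the number of members called up ranged from 3 to 5 for TGF-β1 in Mock cells, 2 to 3 in HSF2oe cells, 2 to 4 for the plasmids with TGF-β1 and 2 to 5 without it. The number called down ranged from 1 to 2, 0 to 2, 0 to 1 and 0 to 1. All genes called ranged from 1143 to 2266 for TGF-β1 in Mock cells (main value 2212), 673 to 1334 in HSF2oe cells (1323), 1509 to 3331 for the plasmids with TGF-β1 (3449) and 368 to 1993 without it (1937), and the cause was not tested beyond the smaller number of samples. Under library totals alone, 4493 genes were called for TGF-β1 in Mock and 2045 in HSF2oe cells, the members called between plasmids were 5 up and 0 down with TGF-β1 and 0 down without it, and the signs of OSMR (-0.052 in Mock and -0.0541 in HSF2oe cells), STAT3 (-0.212 and -0.0928, and 0.0638 between plasmids with TGF-β1), CLCF1 (-0.085 in HSF2oe cells) and the IL11 difference of effects (0.0227) turned. With only the 4 libraries compared, 0 members were called down between plasmids without TGF-β1. For the difference of the TGF-β1 effects, 0 genes were called in the main test, 83 with no filter on low counts and 23 by DESeq2.

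The replicate block, which the labels give no reason to prefer, called 3350 genes for TGF-β1 in Mock cells, 2366 in HSF2oe cells, 3614 between plasmids without TGF-β1 and 78 for the difference of effects. With the block, 2 members were called down between plasmids in each medium. It added the calls of SOCS3 in Mock cells (0.42), LIF in HSF2oe cells (0.29), and between plasmids LIFR without TGF-β1 (-0.27) and IL6ST (-0.26) and CLCF1 (0.34) with it, and lost no member's call. Deviations of same-numbered libraries correlated by 0.118 in the Mock and 0.163 in the HSF2oe groups. Between plasmids they correlated by 0.081 with and 0.069 without TGF-β1. The other pairs of groups gave 0.082 and 0.050, so every correlation was positive. LIF, CLCF1 and SOCS3 were higher in library 1 than in library 2 of every group, while IL6 and STAT3 were lower in library 1 of every group. HSF2 itself was higher in library 1 of both HSF2oe groups, at 780.3 against 489 CPM with TGF-β1 and 937 against 616 CPM without it. Because the labels do not say what a replicate number shares, the numbers were not taken as pairs. Whether same-numbered libraries share an effect was not tested.

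With single libraries left out, values that changed sign ranged as follows. The TGF-β1 effect ranged from -0.0188 to 0.106 for STAT3 and from -1.53 to 0.17 for IL6R in Mock cells, and from -0.14 to 0.27 for CLCF1 in HSF2oe cells. The difference of effects ranged from -0.18 to 0.043 for IL11, -0.316 to 0.0546 for IL6, -0.842 to 0.911 for IL6R, -0.074 to 0.22 for LIFR, -0.118 to 0.287 for SOCS3 and -0.0328 to 0.089 for STAT3. Depth limits IL6R most, with 4 to 53 reads per library. Leaving out a library leaves its group with 1 library, which is assumed to vary like the others.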

Other observations

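The genes whose levels followed those of 3 cytokine genes most closely were sought among 11677 genes whose mean log2 CPM reached 1, by the root mean square difference of log2 CPM over the 8 libraries after centring each gene on its own mean. The libraries come in 4 groups, so the measure mostly reflects the group means, and it is given as a description. IL11, whose own spread was 1.37 on this scale, was followed closely by CLDN14, EDN1, ANKRD1 and RHOB, at differences of 0.28, 0.31, 0.34 and 0.42. EDN1, the gene of the vasoconstrictor endothelin-1, averaged 394 CPM in HSF2oe TGFb, 70.2 CPM in HSF2oe Control, 184 CPM in Mock TGFb and 46.3 CPM in Mock Control. CLDN14, a claudin gene, averaged 7.01, 1.17, 4.73 and 0.575 CPM in the same order of groups.

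IL6, with a spread of 0.72, was followed by TNFAIP8L3, CSRNP1, PKIA, PRDM1 and SLC35F2, at differences from 0.26 to 0.33. CSRNP1 averaged 52.1 CPM in HSF2oe TGFb, 31.6 CPM in HSF2oe Control, 31.0 CPM in Mock TGFb and 15.0 CPM in Mock Control. LIF, with a spread of 0.36, was followed by PTHLH, HCG18, UVRAG, CTPS1 and DUSP1, at differences from 0.081 to 0.11. PTHLH, which encodes parathyroid hormone-related protein, averaged 3.16 CPM in HSF2oe TGFb, 2.62 CPM in HSF2oe Control, 2.97 CPM in Mock TGFb and 1.56 CPM in Mock Control.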
